A study of Mus musculus with 6 samples.

Results

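TGF-β is made as a latent protein, and 10 genes that make, hold and receive it were followed in stromal cells of mouse melanomas. They are the ligands Tgfb1, Tgfb2 and Tgfb3, the receptors Tgfbr1, Tgfbr2 and Tgfbr3, and the latent TGF-β binding proteins (LTBPs) Ltbp1, Ltbp2, Ltbp3 and Ltbp4. The members were taken by gene name from a table of 53801 genes, and all 10 were among the 15133 genes with enough counts to be tested. The libraries were made from PDPN+PDGFRα+ cells, gated as CD45- and CD31-, of MO5 tumors, which grow from a B16 melanoma line that carries ovalbumin. The question was which genes differ in these cells when ADAM12+ cells have been killed. There were 3 libraries from ADAM12-DTR mice (labelled DTR+, here DTR) and 3 from non-transgenic littermates of the same sex (labelled DTR-, here Ctrl). The mice were on the C57Bl/6 background and 8 to 12 weeks old when tumors were implanted under the skin. Both groups are labelled as treated with diphtheria toxin (DT), so the receptor transgene, and not the toxin, sets them apart. In DTR mice the receptor for the toxin is driven by the Adam12 promoter, so that cells with an active promoter should die, and the sorted fraction holds the PDPN+PDGFRα+ cells that remain. The labels do not say that each library is from a separate mouse, and p-values measure the spread between these libraries.

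Each TGF-β precursor is cut after its propeptide, the latency-associated peptide, which then stays bound around the mature dimer. In the secretory pathway an LTBP can be bonded to this complex, and the complex is stored in the matrix, where integrins or proteases set the ligand free. Free TGF-β is bound by TGFBR2, which recruits and phosphorylates TGFBR1, and TGFBR1 then phosphorylates SMAD2 and SMAD3. TGFBR3, or betaglycan, is a co-receptor that presents ligand, TGF-β2 above all, to TGFBR2. In fibroblasts this route drives matrix production and the contractile program, and in tumors TGF-β is known as a suppressor of T cells.

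The ligands differ in how they can be released, and this can be read in their coding sequence. The reading frames of Tgfb1, Tgfb2 and Tgfb3 encode 390, 414 and 412 residues. An RGD motif, the site that αv integrins grip, occurs once in Tgfb1 (first residue 244) and once in Tgfb3 (first residue 261), and 0 times in Tgfb2. Both stretches are shown with the RGD codons in capitals. They lie at chr7:25696992-25697171 on the plus strand, across the border of exons 4 and 5 of the main Tgfb1 transcript, and at chr12:86062144-86062194 on the minus strand, in exon 5 of that of Tgfb3 (GRCm38, GENCODE M21).
Tgfb1: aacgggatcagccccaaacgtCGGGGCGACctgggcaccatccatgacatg
Tgfb3: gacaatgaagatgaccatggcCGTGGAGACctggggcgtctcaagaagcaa

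The cut by furin-type proteases is common to all 3 ligands. Its codons, which begin and end with arginine, are in capitals in the next stretches, at chr7:25697217-25697270 (plus), chr1:186630612-186630665 (minus) and chr12:86062030-86062083 (minus), each within exon 5 of its transcript. The codons after them begin the mature peptide, which has 112 residues and 9 cysteines in each ligand. Position by position, the mature peptide of Tgfb3 had 87 residues identical to that of Tgfb1 (77.7%) and 88 identical to that of Tgfb2 (78.6%), and Tgfb1 and Tgfb2 had 81 in common (72.3%).
Tgfb1: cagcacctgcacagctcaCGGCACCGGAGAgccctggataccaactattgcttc
Tgfb2: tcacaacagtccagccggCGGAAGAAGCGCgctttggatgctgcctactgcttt
Tgfb3: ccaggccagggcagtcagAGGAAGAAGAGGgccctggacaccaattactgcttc

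The sort was checked first, since it bears on where the transcripts of these genes come from. Library totals ran from 22339635 to 34271929 counts. Values are CPM, read counts scaled to a common library total, after TMM scaling, a correction for the make-up of each library. The 8 fibroblast markers were all present, and their sum was 13572, 5208 and 5132 CPM in Ctrl replicates 1, 2 and 3 and 10812, 5549 and 14036 CPM in DTR replicates 1, 2 and 3, so the highest library had 2.74 times the lowest. The 7 melanoma markers, among them the pigment enzyme gene Dct, summed to between 15602 and 18132 CPM in Ctrl and between 14553 and 17248 CPM in DTR, more than the fibroblast markers in every library. The sorted fraction thus held melanoma RNA at levels that differed by 1.25 times between libraries, whereas its fibroblast markers differed by more than 2 times within each group. All 8 fibroblast markers had a log2 fold change above 0, and all 8 overlapped between the groups. In bulk RNA, fewer cells of a type and less RNA per cell cannot be told apart. Sums of macrophage markers were between 121 and 204 CPM in Ctrl and between 139 and 148 CPM in DTR, with Itgam at 0. Sums were at most 26.6 CPM for the 5 T cell markers, 22.1 for the 5 mural markers, 6.57 for the 5 platelet markers (Gp9 at 0) and 0.735 for the 4 keratinocyte markers (Krt1 at 0). The 5 endothelial markers summed to at most 78.9 CPM, in DTR replicate 3, of which 62.9 came from Tek and 11.997 from Kdr, both higher there than in any other library, whereas Cdh5 and Emcn were at 0 there.

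Adam12, whose promoter drives the transgene, stood at 216, 181 and 175 CPM in Ctrl and at 165, 151 and 112 CPM in DTR. The ranges did not overlap, with a log2 fold change of -0.42 (DTR over Ctrl) and an adjusted p of 0.602 by edgeR's quasi-likelihood test, Benjamini-Hochberg adjusted. The sorting markers were found in every library. Pdgfra was at 125, 42.7 and 63.0 CPM in Ctrl and 96.7, 54.0 and 132 CPM in DTR, and Pdpn lay between 46.0 and 73.3 CPM in Ctrl and between 49.0 and 99.2 CPM in DTR.

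Tgfbr2 was the most abundant of the 10 genes in every library. As melanoma RNA was present in each library, these are levels of the sorted fraction, and how much of each comes from fibroblasts or melanoma cells was not tested. Levels were compared between genes as CPM per kb of merged exon, and Tgfbr2 reached 33.4 ± 16.0 CPM per kb (mean and SD over 6 libraries), which placed it 1036th of the 15133 genes tested. Tgfbr3 followed with 11.9 ± 6.66, and Ltbp3 with 9.70 ± 1.15 and Tgfbr1 with 9.64 ± 1.199 were next, each on the same scale. The order of the last 3 was not the same for the group means. Ltbp3 led in Ctrl with a mean of 10.2, before Tgfbr1 with 8.96 and Tgfbr3 with 8.495. Tgfbr3 led in DTR with 15.3, before Tgfbr1 with 10.3 and Ltbp3 with 9.24. The order also changed between libraries of a group. Tgfbr3 (13.6) was above Ltbp3 (10.8) in Ctrl replicate 1, and Tgfbr1 (11.9) was above Tgfbr3 (8.98) in DTR replicate 2. Tgfbr2 exceeded Tgfbr3 in 6 of 6 libraries, whereas Tgfbr3 exceeded Ltbp3 in 4, as Ltbp3 did Tgfbr1.

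Below the receptors came Tgfb1, the leading ligand, with 6.29 ± 0.823 CPM per kb, under Tgfbr1 in every library. Ltbp1 had 3.68 ± 3.01, Tgfb3 2.96 ± 0.627, Tgfb2 2.49 ± 0.669, Ltbp4 1.54 ± 0.618 and Ltbp2 1.21 ± 0.903 CPM per kb. The step from Tgfbr1 to Tgfb1 was the only one between neighbours at which the ranges over libraries did not overlap. The order of Ltbp1 and Tgfb3 was not settled by these libraries, as Ltbp1 was the higher in 2 of 6.

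**Figure D1:**
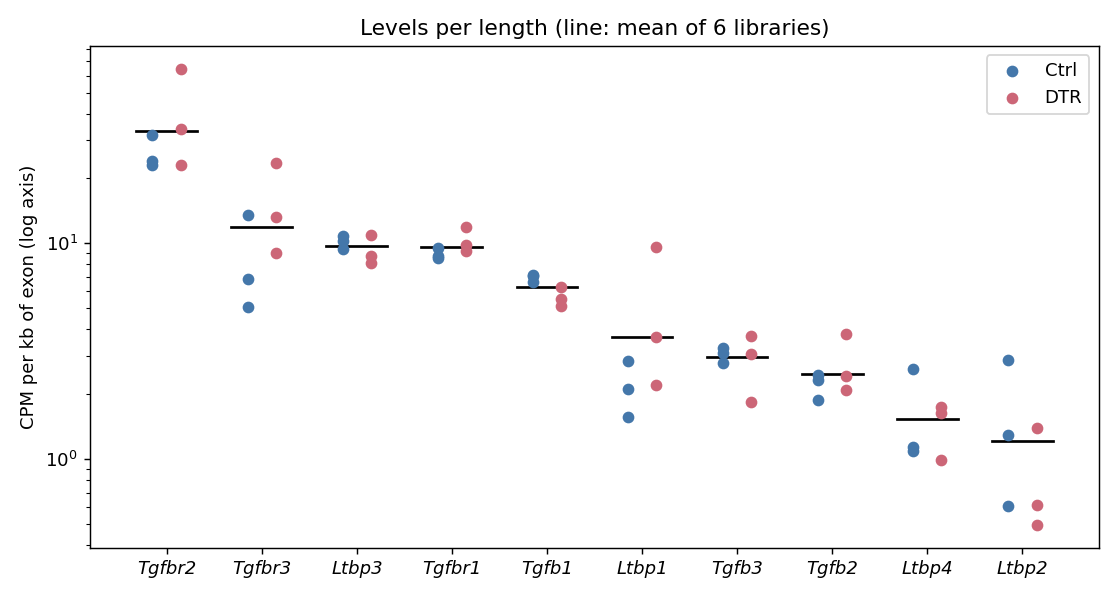
Level of each gene in CPM per kb of exon on a log axis, ordered by the mean of 6 libraries (black line); points are single libraries, blue for Ctrl and red for DTR. Tgfbr2 is highest in every library, from 23.0 to 64.5, and Ltbp1, Ltbp2 and Tgfbr3 have the widest spread.

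Across the table, edgeR's quasi-likelihood test gave an adjusted p under 0.05 to 0 genes (0.0%), with 0.602 as the lowest adjusted p, so that 0 of the 10 members passed. At an unadjusted p under 0.05 there were 7.92% of all genes tested, 4.11% lower and 3.81% higher in DTR, and 2 of the members, Tgfb1 lower and Ltbp1 higher. Over the alternatives that count of members ranged from 0 to 5. It was 0 by DESeq2, with unadjusted p-values of 0.0549 and 0.0548 for the 2 genes, and by edgeR without Ctrl replicate 2. It was also 0 by edgeR with the sum of fibroblast markers that are not collagens as a covariate. It was 5 by edgeR without DTR replicate 2. DESeq2, run on the same counts, called 0.151% of the genes it gave an adjusted p and 0 members, the lowest adjusted p of a member being 0.809. Of the members, 5 had a log2 fold change below 0 and 5 above, with a median of 0.06, beside -0.0029 and 49.6% above 0 over all genes tested. Groups did not overlap for 1 member, lower in DTR, and for none higher in DTR, against 8.18% and 6.32% of all genes tested. Against these shares, 2 and 1 of 10 genes are counts too small to set the members apart from the table, and what follows describes their levels library by library.

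**Figure D2:**
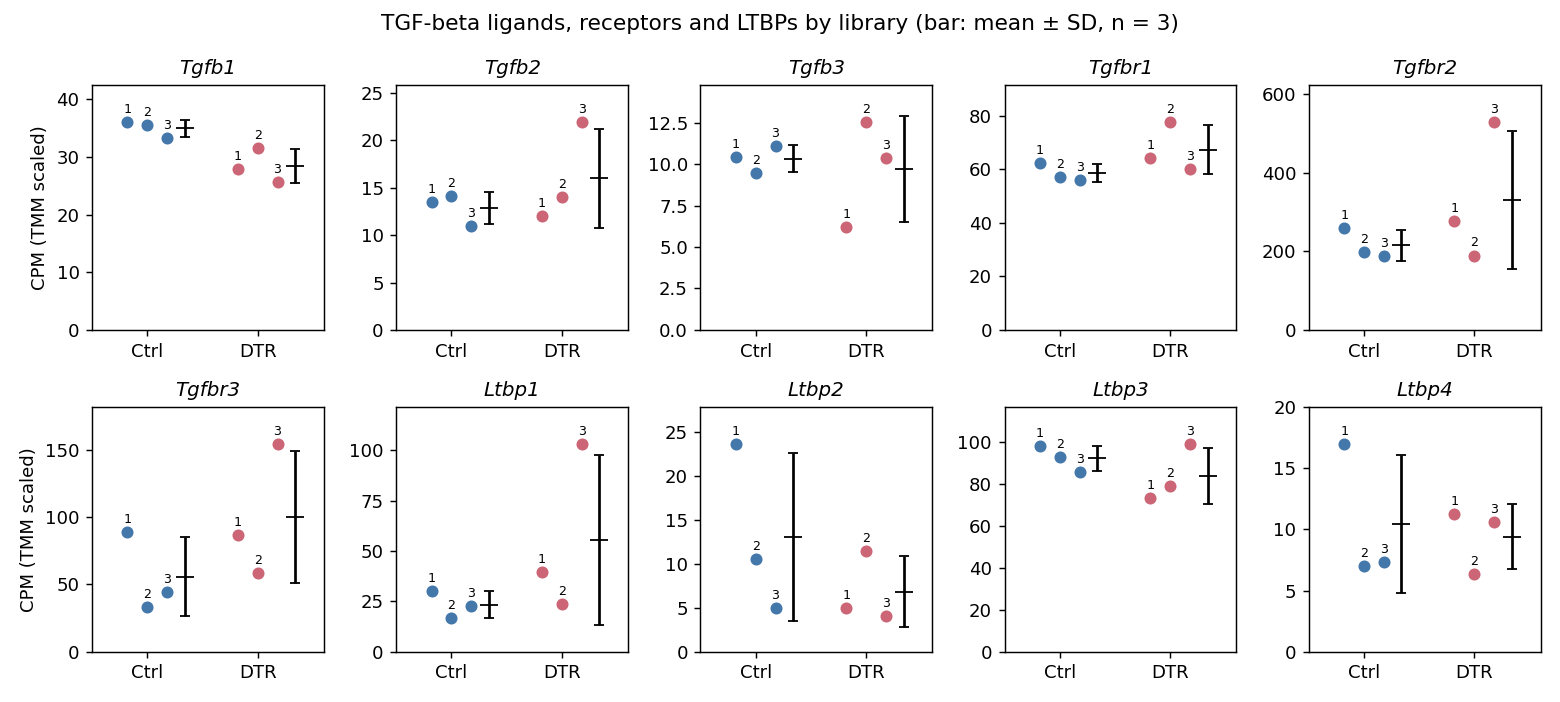
CPM of each gene in the 3 Ctrl (blue) and 3 DTR (red) libraries, with the replicate number over each point and the mean ± SD (n = 3) as a bar; each panel has its own axis from 0. The groups are apart for Tgfb1 alone, and DTR replicate 3 is the highest library for Tgfb2, Tgfbr2, Tgfbr3, Ltbp1 and Ltbp3, as it is for 20.9% of all genes tested, more than any other library.

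Among the ligands, Tgfb1 was the one whose groups did not overlap. TGF-β1 is the form that platelets, T cells and macrophages secrete, and the one tied most to fibrosis and immune suppression. Tgfb1 was at 36.0, 35.6 and 33.3 CPM in Ctrl and at 27.98, 31.6 and 25.7 CPM in DTR. Each DTR library was below each Ctrl library, and the group means were 35.0 ± 1.45 and 28.4 ± 2.97 CPM (SD, n = 3 each). The log2 fold change was -0.30 ± 0.11 (SE), or 1.23 times more in Ctrl, with an adjusted p of 0.602 by edgeR's quasi-likelihood test (unadjusted 0.0286) and an exact permutation p of 0.1, two-sided, the smallest that 3 libraries against 3 can give. Leaving out single libraries kept the value between -0.38 and -0.23. Among markers of cells that make TGF-β1, the macrophage sum overlapped between the groups, with 121 CPM in Ctrl replicate 1, where Tgfb1 was highest. Of its 9 tested markers, 6 had a log2 fold change below 0 and 3 above, and 1, Mrc1, did not overlap, with 26.3, 22.3 and 20.2 CPM in Ctrl and 17.97, 17.0 and 11.4 CPM in DTR. All 5 T cell markers and 5 of 7 melanoma markers were also below 0, and 1 of each, Cd3d and Sox10, did not overlap and was lower in DTR. The platelet sum was 3.69 to 6.57 CPM in Ctrl and 2.93 to 5.21 CPM in DTR, the T cell sum 3.96 to 26.6 and 6.05 to 11.7 CPM. The melanoma sum overlapped between the groups and was lowest in DTR replicate 3, as Tgfb1 was. The part of these cells in the value of Tgfb1 was not tested.

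Tgfb2, the isoform without an RGD motif and the one that depends most on TGFBR3, was at 13.5, 14.2 and 10.9 CPM in Ctrl and at 12.1, 14.0 and 21.9 CPM in DTR. Its DTR mean was set by replicate 3, as the other two DTR libraries fell within the Ctrl range. The log2 fold change of 0.31 ± 0.24 (adjusted p = 0.739, edgeR's quasi-likelihood test; exact permutation p = 0.5) came to 0.02 without that library. Tgfb3, which has an RGD motif like Tgfb1, was at 10.5, 9.46 and 11.1 CPM in Ctrl and at 6.22, 12.5 and 10.4 CPM in DTR. DTR held both its lowest and its highest library, and the log2 fold change of -0.09 ± 0.26 (adjusted p = 0.936, edgeR's quasi-likelihood test) turned to 0.16 without DTR replicate 1.

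The make-up of the ligand pool was steady in Ctrl. Tgfb1 held between 56.1% and 57.4% of the summed ligand level per kb in the Ctrl libraries, and 58.6%, 50.6% and 42.7% in DTR replicates 1, 2 and 3. The share of Tgfb2 was 16.0% to 19.9% in Ctrl and 19.5% to 31.7% in DTR, with 31.7% in replicate 3. The groups overlapped for all 3 shares, with exact permutation p-values of 0.4, 0.2 and 1.0 for Tgfb1, Tgfb2 and Tgfb3. The summed ligand level itself was 12.2 ± 0.401 CPM per kb in Ctrl and 11.3 ± 1.57 in DTR (SD, n = 3; exact permutation p = 0.5).

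The receptors had their highest values in DTR replicate 3 or, for Tgfbr1, in DTR replicate 2. Tgfbr1 encodes the type I receptor, the kinase that acts on the SMADs, and was at 62.4, 57.2 and 56.1 CPM in Ctrl and at 64.5, 77.6 and 60.2 CPM in DTR. Only DTR replicate 3 lay within the Ctrl range. The log2 fold change was 0.20 ± 0.12 with an adjusted p of 0.664 by edgeR's quasi-likelihood test and an exact permutation p of 0.2, and it was 0.09 without DTR replicate 2.

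Tgfbr2 encodes the type II receptor, which binds TGF-β first. It stood at 260, 197 and 188 CPM in Ctrl and at 276, 189 and 528 CPM in DTR. DTR replicates 1 and 2 were near Ctrl replicates 1 and 3, and DTR replicate 3 had more than any other library. This gave a log2 fold change of 0.62 ± 0.34 (adjusted p = 0.655, edgeR's quasi-likelihood test; exact permutation p = 0.3) and 0.11 without DTR replicate 3. The ratio of Tgfbr2 to Tgfbr1, both per kb, was 3.32, 2.75 and 2.68 in Ctrl and 3.42, 1.95 and 7.003 in DTR, so that DTR held both the lowest and the highest ratio.

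Tgfbr3 was at 88.9, 33.4 and 44.6 CPM in Ctrl and at 86.6, 58.8 and 154 CPM in DTR. The groups overlapped through Ctrl replicate 1, with means of 55.6 ± 29.3 and 99.9 ± 49.1 CPM. Tgfbr3 had a log2 fold change of 0.84 ± 0.43 (adjusted p = 0.648, edgeR's quasi-likelihood test; exact permutation p = 0.3), and it was 1.36 without Ctrl replicate 1 and 0.39 without DTR replicate 3. Tgfbr3 shares 297 bases of exon with Gm43422 on the same strand, and how reads there were counted was not tested.

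Ltbp1 was the one LTBP gene whose mean was higher in DTR. LTBP1 carries latent TGF-β1 into the matrix, where it is anchored to fibronectin and fibrillin. It was at 30.3, 16.8 and 22.7 CPM in Ctrl and at 39.4, 23.5 and 103 CPM in DTR. DTR replicates 1 and 3 were above every Ctrl library, and DTR replicate 2 was within the Ctrl range. The means were 23.3 ± 6.77 and 55.3 ± 42.1 CPM, and the log2 fold change was 1.24 ± 0.50 (2.37 times; unadjusted p = 0.0369, adjusted p = 0.604 by edgeR's quasi-likelihood test; exact permutation p = 0.2). Without DTR replicate 3 it was 0.43. In that library, the highest for Tgfbr2, Tgfbr3 and Ltbp1, the endothelial sum was also highest, at 78.9 CPM against 18.9, 11.6 and 15.7 CPM in Ctrl and 27.3 and 13.2 CPM in DTR replicates 1 and 2. Of that sum 62.9 CPM were Tek, and Pecam1, which encodes the gated-out CD31, was not highest there, with 4.01 CPM against 8.03 and 5.41 CPM in DTR replicates 1 and 2 and 2.61, 3.81 and 5.03 CPM in Ctrl, while Cdh5 and Emcn were at 0. The part of these transcripts in the values of the 3 genes was not tested.

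Ltbp3, whose protein also binds latent TGF-β for release into the matrix, was the most abundant LTBP. It was at 97.9, 92.8 and 85.7 CPM in Ctrl and at 73.2, 79.1 and 99.0 CPM in DTR, with a log2 fold change of -0.14 ± 0.13 (adjusted p = 0.780, edgeR's quasi-likelihood test). DTR replicates 1 and 2 were below each Ctrl library and DTR replicate 3 above each, and the value was -0.27 when the latter was left out and -0.04 without DTR replicate 1.

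Ltbp4, which binds latent TGF-β1 weakly and serves elastic fibre assembly, was at 17.0, 7.04 and 7.35 CPM in Ctrl and at 11.2, 6.38 and 10.6 CPM in DTR. Ctrl replicate 1 was far above the other Ctrl libraries, and the log2 fold change of -0.15 ± 0.38 (adjusted p = 0.931, edgeR's quasi-likelihood test) became 0.39 without it. Ltbp2 encodes the LTBP that does not bind latent TGF-β, a protein of microfibrils. It was at 23.6, 10.6 and 4.96 CPM in Ctrl and at 5.002, 11.4 and 4.06 CPM in DTR. Its log2 fold change of -0.93 ± 0.58 (adjusted p = 0.688, edgeR's quasi-likelihood test) depended on single libraries. It was -0.18 without Ctrl replicate 1 and -1.52 without DTR replicate 2.

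The LTBPs differed in how the family's total was divided. Ltbp1 held 14.8%, 11.1% and 15.9% of the summed LTBP level per kb in Ctrl and 26.1%, 16.5% and 42.5% in DTR, with no overlap (exact permutation p = 0.1, the smallest possible). The groups were apart by little, with DTR replicate 2 at 16.5% and Ctrl replicate 3 at 15.9%, and 1 of 10 shares without overlap is near the 8.18% and 6.32% of single genes given above, so nothing is read from the count. Ltbp3 held 56.4% to 72.1% in Ctrl and 48.1% to 65.6% in DTR. The summed LTBP level was 15.6 ± 3.14 CPM per kb in Ctrl and 16.7 ± 5.21 in DTR, and overlapped.

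**Figure D3:**
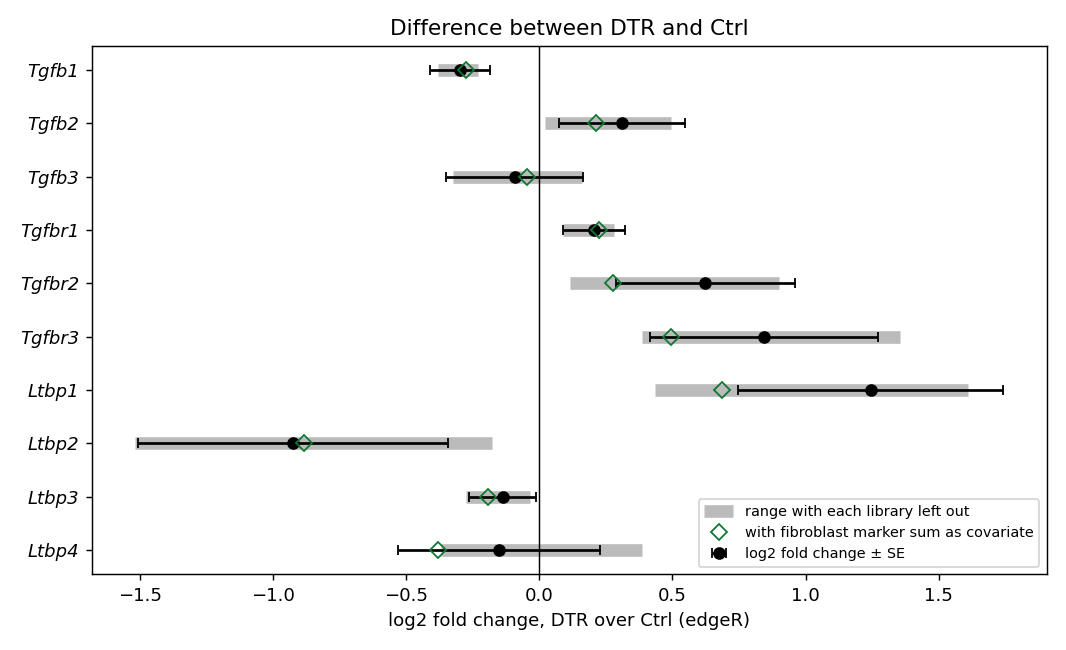
Log2 fold change of each gene, DTR over Ctrl, from edgeR (point, with SE), the range of the same value when each library in turn is left out (grey bar), and the value when the fibroblast marker sum is a covariate (green diamond). Tgfb1, Tgfb2, Tgfbr1, Tgfbr2, Tgfbr3, Ltbp1, Ltbp2 and Ltbp3 keep their side of 0 throughout, Tgfb3 and Ltbp4 do not, and Tgfbr2, Tgfbr3 and Ltbp1 lie nearer to 0 with the covariate.

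Of the members, 4 were highest in the libraries with the highest fibroblast sum. The fibroblast sum was highest in Ctrl replicate 1, DTR replicate 1 and DTR replicate 3, and these were also the 3 highest libraries for Tgfbr2, Tgfbr3, Ltbp1 and Ltbp4, as they were for 7.35% of all genes tested. Pdgfra, the sorting marker, was highest in the same 3 libraries. None of the ligands shared this order, nor did Tgfbr1, Ltbp2 or Ltbp3.

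The log2 of the fibroblast sum was then added to the fit as a covariate, an alternative chosen after the data had been seen. The collagen genes Col1a1, Col1a2 and Col3a1, which TGF-β also induces, made up between 93.0% and 96.4% of the sum, so that the covariate is for the most part collagen expression. The log2 fold change of Ltbp1 was then 0.69 ± 0.36, that of Tgfbr3 0.50 ± 0.17 and that of Tgfbr2 0.28 ± 0.23, each smaller than without the covariate. The adjusted p-values by edgeR's quasi-likelihood test were 0.664, 0.589 and 0.770. Tgfb1 was at -0.28 ± 0.12 (adjusted p = 0.622, edgeR's quasi-likelihood test). The 5 markers that are not collagens summed to 485, 199 and 329 CPM in Ctrl and 473, 276 and 980.1 CPM in DTR, highest in DTR replicate 3. With their log2 sum as the covariate instead, Ltbp1 was at 0.34 ± 0.18, Tgfbr3 at 0.26 ± 0.15, Tgfbr2 at 0.07 ± 0.18 and Tgfb1 at -0.23 ± 0.12, and the lowest adjusted p of the 10 genes was 0.766, for Tgfbr1, by edgeR's quasi-likelihood test.

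Set against the fibroblast sum, the libraries gave a different picture for single genes. As CPM for every 1000 CPM of fibroblast markers, Ltbp1 had 2.24, 3.23 and 4.42 CPM in Ctrl and 3.64, 4.24 and 7.35 CPM in DTR, so DTR replicate 3 was still the highest. Tgfbr2 had 19.1, 37.8 and 36.7 CPM in Ctrl and 25.6, 34.1 and 37.6 CPM in DTR, and on this scale DTR replicate 3 no longer stood above Ctrl. Tgfbr3 had 6.55, 6.41 and 8.68 CPM in Ctrl and 8.01, 10.6 and 10.99 CPM in DTR, and only DTR replicate 1 was within the Ctrl range. Tgfb1, whose groups were apart in CPM, overlapped on this scale, with 2.65, 6.83 and 6.49 CPM in Ctrl and 2.59, 5.69 and 1.83 CPM in DTR. Ltbp4 had 1.25, 1.35 and 1.43 CPM in Ctrl and 1.04, 1.15 and 0.757 CPM in DTR, and the groups did not overlap. That was the case for 0.925% of all genes tested in that direction, and the share in the other direction was not computed. The divisor varied 2.74 times between libraries, so genes that do not follow it tend to overlap on this scale. The share is thus low by the choice of scale, and nothing is read from it. The log2 fold change of Ltbp4 with the covariate was -0.38 ± 0.19 (adjusted p = 0.647, edgeR's quasi-likelihood test). The part of fibroblast RNA in the group values beyond these fits was not tested.

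**Figure D4:**
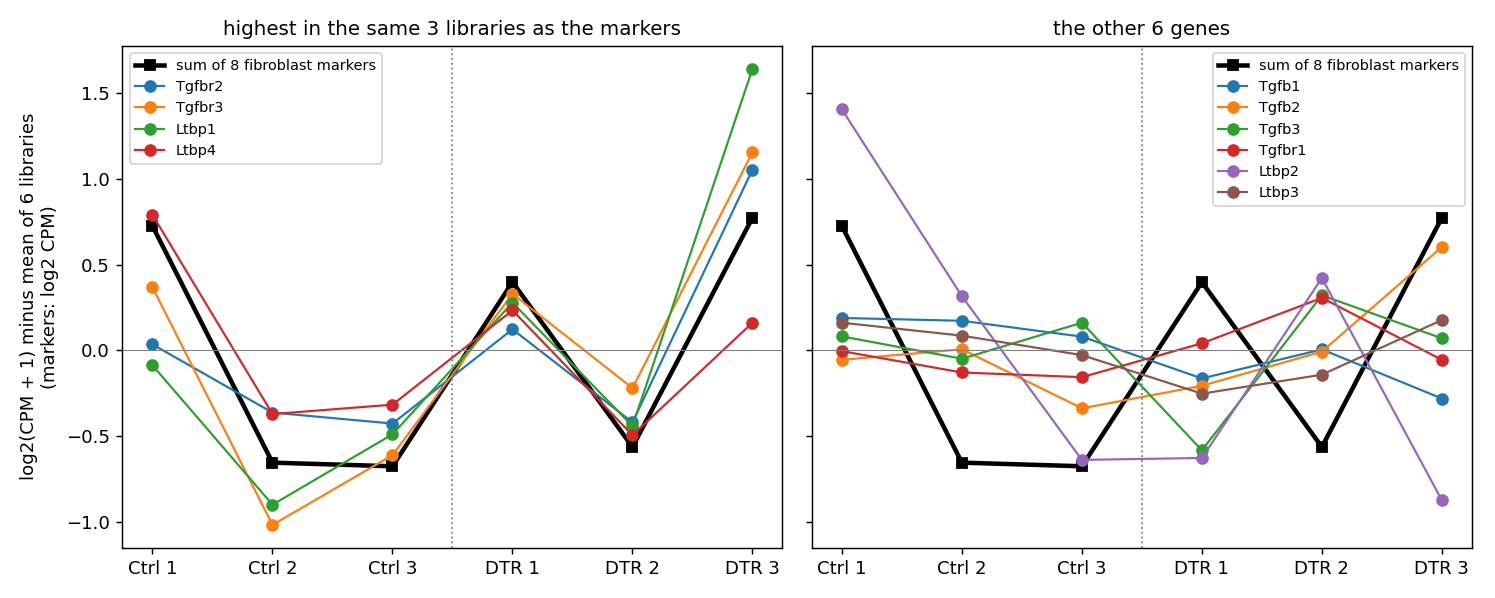
Deviation of each gene from its mean over 6 libraries, as log2(CPM + 1), beside that of the summed fibroblast markers (black, log2 CPM); the dotted line parts Ctrl from DTR. Tgfbr2, Tgfbr3, Ltbp1 and Ltbp4 (left) are highest in Ctrl replicate 1, DTR replicate 1 and DTR replicate 3, as the markers are, and the other 6 genes (right) are not.

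The promoters of Tgfbr2 and Ltbp1, a pair of the 4 genes that were highest in the same libraries, are shown with their motifs. The table of RefSeq promoters (GRCm38.p6) had entries for 8 of the 10 members, Ltbp4 included and Tgfbr3 not. The windows are the 250 bases before the start, at chr9:116175364-116175613 on the minus strand for Tgfbr2 and at chr17:75005279-75005528 on the plus strand for the first of 2 Ltbp1 starts. Capitals mark matches, on either strand, to the SMAD box CAGAC, the AP-1 site TGANTCA, the cAMP response element TGACGTCA and the hypoxia response core ACGTG.
Tgfbr2: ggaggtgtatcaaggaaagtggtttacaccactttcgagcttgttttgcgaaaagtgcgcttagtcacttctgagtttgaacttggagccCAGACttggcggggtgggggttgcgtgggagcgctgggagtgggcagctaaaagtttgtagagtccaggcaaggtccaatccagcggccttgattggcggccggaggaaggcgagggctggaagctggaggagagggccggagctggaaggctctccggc
Ltbp1: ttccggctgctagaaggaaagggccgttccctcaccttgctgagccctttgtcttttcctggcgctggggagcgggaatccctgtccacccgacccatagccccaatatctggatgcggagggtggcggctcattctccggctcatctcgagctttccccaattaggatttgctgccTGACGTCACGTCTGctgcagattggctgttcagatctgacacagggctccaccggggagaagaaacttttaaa

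The Tgfbr2 window held 1 SMAD box and the Ltbp1 window 1 SMAD box, 1 cAMP response element and 1 hypoxia response core, which overlap in a single run of capitals. Of 32851 promoter windows of this length, 42.2% held the SMAD box, 6.75% the AP-1 site, 1.55% the cAMP response element and 16.6% the hypoxia response core. The second Ltbp1 start held 2 SMAD boxes and no other of these motifs. The 3 windows of Ltbp4, which are not printed, that of Tgfb1 and the first of Tgfbr1 held none of these motifs. Members outside the 4 genes held them too. The Tgfb2 window had 2 SMAD boxes and 2 hypoxia response cores, and that of Ltbp2 had 2 SMAD boxes. The Ltbp3 window and the second Tgfbr1 window had 1 SMAD box each.

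Each gene was also set beside the genes whose library profile was nearest to it, by the root mean square difference of centred log2(CPM + 1) over 6 libraries. Nearest to Tgfb1 was Hip1, an adaptor of endocytosis (0.0256), with 168, 173 and 158 CPM in Ctrl and 133, 146 and 121 CPM in DTR. Nearest to Tgfbr2 were Lsp1, an actin-binding protein of leukocytes (0.0703), and Il6ra, the receptor for interleukin 6 (0.0748). Tgfbr3 had Bicc1, an RNA-binding protein (0.0818), and Fgfr1, a receptor for fibroblast growth factors (0.0903). Ltbp1 had the keratin gene Krt23 (0.0742) and Gda, or guanine deaminase (0.0752). Krt23 was at only 0.251 to 5.82 CPM, and the 1 added to CPM damps the variation of genes at such low levels. Between members, the distance was 0.296 for Tgfbr3 and Ltbp1, 0.334 for Tgfbr2 and Tgfbr3 and 0.337 for Tgfbr2 and Ltbp1. These distances depend on how much each gene varies, as the root mean square about its own mean was 0.520 for Tgfbr2, 0.712 for Tgfbr3 and 0.820 for Ltbp1. Flatter genes are near any flat gene, and the lowest distance, 0.208 for Tgfb1 and Ltbp3, was above their own 0.172 and 0.158. Tgfb2 and Tgfbr2 were at 0.326, above the 0.296 of Tgfb2 itself.

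The partners of the other members lay between 0.0223 and 0.306. Tgfbr1 was nearest to the kinase gene Pkn2 (0.0394) and to Patl1, of the mRNA decay bodies (0.0394), Ltbp3 to Echdc3 (0.0223) and Unc119b (0.0372), and the second gene for Tgfb1 was Pgghg (0.0352). Tgfb2 had Epha1 (0.0624) and Dnah8 (0.0732), and Tgfb3 had Cd38 (0.0622) and Hk1os (0.0702). Ltbp4 had Col5a3, a fibrillar collagen gene (0.0878), and Ch25h, an enzyme of oxysterol synthesis (0.0964). Epha1 (0.562 to 2.16 CPM), Hk1os (0.407 to 1.71 CPM) and Ch25h (0.193 to 1.67 CPM) were at low levels, where their distances are made small in the same way. Ltbp2 had the most distant partners, Sorcs2 (0.221) and Ccbe1 (0.306).

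Among 18 genes of latency and activation, 17 were tested and 0 passed by edgeR, with 4 log2 fold changes below 0, 13 above and a median of 0.15, beside the median of -0.0029 and the 49.6% above 0 over all genes tested, with which the tallies of the other lists may be compared too. The median was 0.0031 without Ctrl replicate 3, 0.080 with an offset for genomic span, 0.013 with the fibroblast covariate and -0.014 with the covariate from markers that are not collagens. With the span offset the median over all genes tested fell too, to -0.075. Mmp9, a protease that can release TGF-β, had the lowest log2 fold change. It was at 9.27, 3.14 and 4.68 CPM in Ctrl and at 1.48, 1.64 and 1.24 CPM in DTR, with every DTR library below every Ctrl library. The log2 fold change was -1.96 ± 0.43 with an adjusted p of 0.602 by edgeR's quasi-likelihood test and of 0.0116 by DESeq2, which called no other gene of these lists. Itgb6, the partner of αv in the integrin that activates TGF-β1 and TGF-β3 through the RGD codons shown above, had the highest. It was at 1.02, 0.670 and 1.12 CPM in Ctrl and at 3.403, 2.93 and 2.73 CPM in DTR, from 16 to 32 counts and from 62 to 117 counts. The groups were apart, and the log2 fold change was 1.68 ± 0.36 (adjusted p = 0.602 by edgeR's quasi-likelihood test and 0.0730 by DESeq2). Emilin1, which binds the TGF-β1 precursor and hinders its processing, was at 106, 104 and 104 CPM in Ctrl and at 90.0, 72.2 and 79.6 CPM in DTR, lower in each DTR library (log2 fold change -0.38 ± 0.10, adjusted p = 0.602, edgeR's quasi-likelihood test). Itgb1 was the most abundant gene of the list at 159 CPM per kb, with a log2 fold change of 0.01. Itgb8, whose protein also pairs with αv to activate TGF-β, had at most 15 counts in a library and was not tested, and it is named here outside the rule for named genes, after its counts were seen. Furin, singled out after its values were seen because its cut is shown above, was at 64.0 ± 6.83 CPM in Ctrl and 65.2 ± 8.85 CPM in DTR (SD, n = 3).

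Of 7 co-receptors and decoys, 6 were tested and 0 passed, with 5 log2 fold changes below 0, 1 above and a median of -0.17. Bambi, a pseudoreceptor without a kinase domain, was at 22.3, 25.3 and 26.5 CPM in Ctrl and at 19.9, 14.9 and 20.2 CPM in DTR, with no overlap. Its log2 fold change of -0.43 ± 0.15 was the lowest of the list (unadjusted p = 0.0226, adjusted p = 0.602, edgeR's quasi-likelihood test). Pmepa1, an inhibitor that TGF-β itself induces, had the highest log2 fold change, 0.28 ± 0.31, and Eng, or endoglin, was the most abundant at 36.5 CPM per kb with a log2 fold change of -0.15.

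All 14 SMAD pathway genes were tested and 0 passed, with 4 log2 fold changes below 0, 10 above and a median of 0.15. The median was 0.0541 without Ctrl replicate 2, 0.0546 without DTR replicate 3, 0.078 with the fibroblast covariate, 0.0536 without collagens in it and 0.0334 with an offset for genomic span. That offset put the median over all genes tested at -0.075. Smurf2, a ubiquitin ligase that marks TGF-β receptors for degradation, was at 64.1, 64.1 and 54.9 CPM in Ctrl and at 64.5, 78.2 and 84.9 CPM in DTR. The groups were just apart, at 64.1 and 64.5 CPM, and the log2 fold change of 0.31 ± 0.13 was the highest of the list (unadjusted p = 0.0373, adjusted p = 0.604, edgeR's quasi-likelihood test). Smad6, an inhibitory SMAD, had the lowest log2 fold change at -0.45 ± 0.44, and Smad4, the common partner of SMAD2 and SMAD3, was the most abundant at 20.3 CPM per kb with -0.02.

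The 20 genes that TGF-β induces in fibroblasts were all tested and 0 passed by edgeR, with 7 log2 fold changes below 0, 13 above and a median of 0.20. The list shares Col1a1, Col1a2 and Col3a1 with the fibroblast markers, and with the fibroblast sum as a covariate its median was 0.0080. The sign of the median was not stable, as it was 0.86 without Ctrl replicate 1, 0.05 without Ctrl replicate 3, -0.02 without Ctrl replicate 2 and -0.10 with the covariate from markers that are not collagens. Timp3, an inhibitor of metalloproteases, was at 64.8, 34.8 and 33.8 CPM in Ctrl and at 85.0, 63.2 and 163 CPM in DTR, with only DTR replicate 2 in the Ctrl range. Its log2 fold change of 1.221 ± 0.38 was the highest (unadjusted p = 0.0126, adjusted p = 0.602, edgeR's quasi-likelihood test). Acta2, the smooth muscle actin of myofibroblasts, was at 16.7, 4.27 and 10.6 CPM in Ctrl and at 4.04, 7.15 and 1.46 CPM in DTR, with overlap. Its log2 fold change of -1.31 ± 0.61 was the lowest, and the mural markers, which mark other cells that express Acta2, summed to 22.1, 11.7 and 14.9 CPM in Ctrl and 8.67, 10.1 and 8.16 CPM in DTR. Most of that sum came from Cspg4, with 12.3, 5.82 and 8.72 CPM in Ctrl and 3.02, 4.90 and 5.34 CPM in DTR, and from Notch3. Rgs5 and Kcnj8 had too few counts to be tested, and Myh11 had a log2 fold change of 0.39. The part of mural cells in the value of Acta2 was not tested. Adam12, described above, is on this list with an unadjusted p of 0.0265 by edgeR's quasi-likelihood test. As its promoter drives the toxin receptor, cells that express it are killed by design, and its value is not read as a response to TGF-β. Col3a1 was the most abundant at 460 CPM per kb with a log2 fold change of 0.46.

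Activins signal through the same SMADs by their own receptors. Of 9 activin genes, 7 were tested and 0 passed, with 1 log2 fold change below 0, 6 above and a median of 0.39. That median was 0.025 without DTR replicate 3, 0.074 without Ctrl replicate 2, 0.097 with the fibroblast covariate and -0.026 with the covariate from markers that are not collagens. Acvr2a, an activin type II receptor and the most abundant gene of the list at 4.83 CPM per kb, was at 25.9, 19.3 and 22.3 CPM in Ctrl and at 27.4, 38.7 and 31.0 CPM in DTR, with no overlap. Its log2 fold change was 0.52 ± 0.17 (unadjusted p = 0.0135, adjusted p = 0.602, edgeR's quasi-likelihood test). Fst, the activin antagonist follistatin, had the highest log2 fold change at 0.67 ± 0.50, and its relative Fstl3 the lowest at -0.34 ± 0.24.

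**Figure D5:**
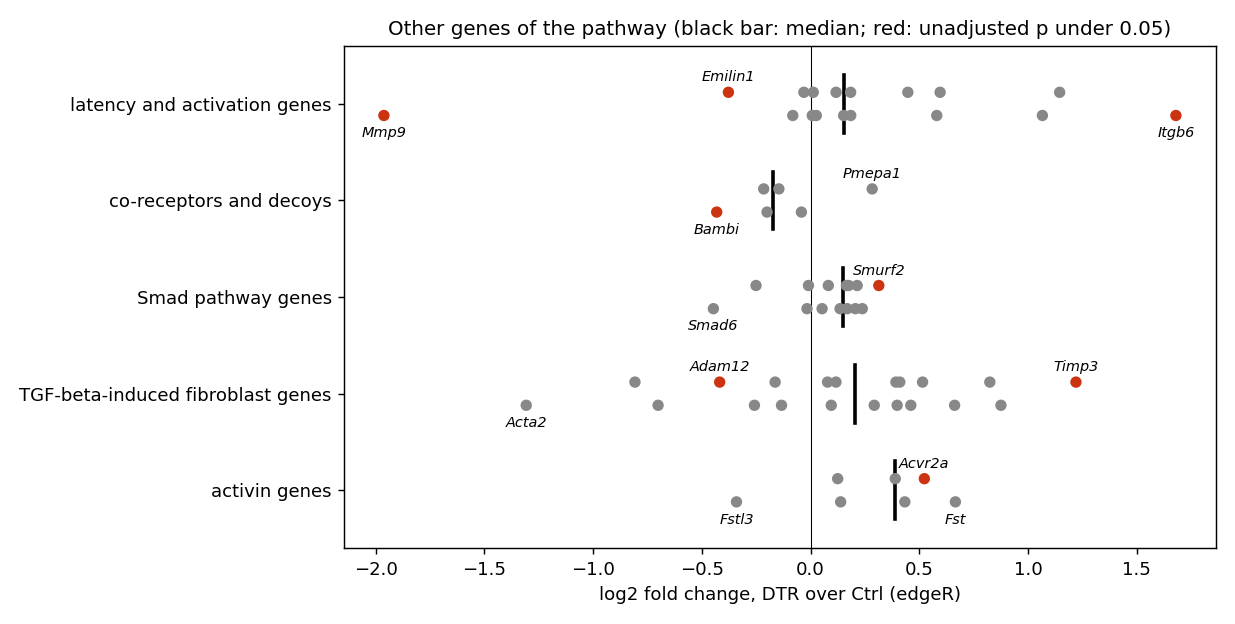
Log2 fold change, DTR over Ctrl, of the tested genes in 5 lists of TGF-β and activin biology; each point is a gene, red where the unadjusted p of edgeR's quasi-likelihood test was under 0.05, and the black bar is the median of the list. Mmp9 and Itgb6 are the outermost points, and no gene has an adjusted p under 0.05 by edgeR.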

How the data were processed

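Libraries of PDPN+PDGFRα+ cells from MO5 tumors (3 Ctrl, 3 DTR) were compared. The authors trimmed reads with cutadapt 3.4, aligned them to GRCm38 with STAR 2.7.3a and counted them per gene and strand with featureCounts 2.0.1, and deposited these raw counts without normalization. The table also holds the authors' normalized values, rounded scores made by dividing counts by DESeq2 size factors, and the authors' DESeq2 comparison (log2 fold changes, linear fold changes, p-values, dispersions), none of which was used. Strand-specific counting keeps antisense genes apart.

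Genes were kept by filterByExpr of edgeR 4.0.16 (minimum count 10, minimum total 15), scaled with TMM and compared with the quasi-likelihood test, two-sided, with Benjamini-Hochberg adjustment over 15133 genes. SE is the size of the log2 fold change divided by the root of the test statistic F. CPM were divided by merged exon length (GENCODE M21), which names 27927 genes that the table leaves unnamed. DESeq2 1.42.0, other scalings and filters, robust moderation, a replicate block, a loess offset on genomic span and each library left out were alternatives. DESeq2 with the offset and a fibroblast covariate, with or without collagens, were added after seeing the data. Steps were tested on simulated data. For 22339635 to 34271929 counts per library, 3 counts are 0.0875 to 0.134 CPM, for counting error only.

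The members, lists and tests were chosen with earlier results of these data known. Named besides the members are, of each list, the lowest and highest log2 fold change, the most abundant gene and genes with an unadjusted p under 0.05, then Adam12, Pdgfra and Pdpn, and the 2 genes nearest in profile to each member. Furin, Itgb8 and marker genes are named outside this rule.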

Additional observations from a re-analysis of the deposited data

How the results depend on the processing

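In every alternative 0 of the 10 members passed, and the lowest adjusted p of a member was 0.460, with an offset for genomic span. Across alternatives that kept all libraries, each member kept its direction, but sizes moved. Tgfb2 (0.31) was 0.19 with the span offset and 0.12 with the covariate without collagens, and Tgfbr1 (0.20) was 0.10 with the offset. Tgfb3 (-0.09) was -0.15 with the offset and -0.05 with the fibroblast covariate. Ltbp3 (-0.14) and Ltbp4 (-0.15) were -0.24 and -0.49 with the covariate without collagens. With 1 library left out, Tgfb3 ranged from -0.32 to 0.16 (log2), crossing 0 without DTR replicate 1, and Ltbp4 from -0.37 to 0.39, crossing 0 without Ctrl replicate 1 or DTR replicate 2 (0.06). The cause was not tested.

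The latency and activation list had 1 call (Mmp9) by DESeq2 and 1 by DESeq2 with the span offset. The latter also gave 1 call among the TGF-β-induced genes, Adam12, whose promoter drives the toxin receptor and whose cells are killed by design. Medians are given in turn for a library left out (lowest to highest), the fibroblast covariate and that covariate without collagens. They were 0.0031 to 0.313, 0.013 and -0.014 for latency and activation genes, -0.185 to -0.116, -0.167 and -0.181 for co-receptors, 0.0541 to 0.191, 0.078 and 0.0536 for SMAD genes, -0.0210 to 0.859, 0.0080 and -0.096 for TGF-β-induced genes, and 0.0254 to 0.519, 0.097 and -0.026 for activin genes. With the span offset the medians in edgeR were 0.080 for latency, -0.235 for co-receptors (-0.235 in DESeq2) and 0.0334 for SMAD genes (0.0333 in DESeq2). They stand beside a median over all genes tested of -0.075 with that offset, in edgeR and in DESeq2, so part of each shift is shared by the whole table. Library size alone gave -0.142 for co-receptors. Over all genes edgeR made 0 calls, or 2 without Ctrl replicate 1, DESeq2 31, and DESeq2 with the offset 44.

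Deviations from the group mean correlated at 0.16, 0.19 and -0.08 between same-numbered libraries. Libraries with unlike numbers were not compared in this way, so whether the numbers pair the libraries was not settled. With the replicate block, 0 members passed, with 0.575 as their lowest adjusted p by edgeR, and the log2 fold changes of Ltbp2 and Ltbp4 were -0.80 and -0.08. The lowest count of a member in a library was 92 (Ltbp2), so that depth limits Ltbp2 most.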
